A study of Rattus norvegicus with 12 samples.

Results

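Complexes II to V of the respiratory chain were followed through their nuclear genes in a table of islet transcripts from young adult rats. Members were chosen by gene symbol alone: every gene whose symbol starts with Sdha, Sdhb, Sdhc, Sdhd, Uqcr, Cyc1 or Atp5, or with Cox and a number. The rule took 56 of 17407 genes, with 7 for complex II, 9 for complex III, 23 for complex IV and 17 for complex V. Among them 42 encode subunits, 10 encode assembly factors that carry the same prefixes, and 4 are a pseudogene or related proteins. Subunits encoded in mitochondrial DNA are not members. The table places genes on rat build rn5, for example Cox7a2 at chr8:86753411-86757509, Atp5j2 at chr12:13260901-13267471 and Cox6a2 at chr1:206669984-206670730, and counts reads over all exons of a gene.

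Islets were picked by hand from the pancreas of Sprague Dawley rats aged 15 weeks after collagenase digestion, and total RNA depleted of ribosomal RNA (rRNA) was sequenced. The 12 libraries form 4 groups of 3 that combine a maternal diet with a weaning diet. Dams ate a low-fat diet (LF, 10% fat) or a high-fat and sucrose diet (HFS, 45% fat) for 6 weeks before mating with LF-fed males and through pregnancy and suckling, with 6 dams per diet. HFS-fed dams are labelled GDM, for gestational diabetes, and LF-fed dams lean, so the GDM label stands for the HFS diet of the dam. Litters were reduced to 8 pups, which were weaned on to either diet for 12 weeks. Group names join both, so that offspring of lean dams are Lean-LF or Lean-HFS and offspring of GDM dams GDM-LF or GDM-HFS by the diet they were weaned on. The labels give neither the litter nor, in words, the animal of each library, and the p-values below rest only on how far these libraries differ within groups, which may be technical.

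Complex II (succinate dehydrogenase) passes electrons from succinate to coenzyme Q, complex III (cytochrome bc1) from coenzyme Q to cytochrome c, and complex IV (cytochrome c oxidase) from cytochrome c to oxygen. Complex V (ATP synthase) turns the proton gradient that complexes III and IV help to build into ATP. In beta cells the ATP made from glucose closes potassium channels in the cell membrane, which starts insulin release, so oxidative phosphorylation couples glucose to secretion.

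Libraries held 11469290 to 27492858 reads over genes. Values are the deposited read values scaled to library depth and divided by a further factor per library (0.827 to 1.27), and they are not divided by transcript length unless stated. In bulk islets fewer cells of a type and less RNA per cell cannot be told apart. Islet hormone and beta cell markers were high in every library (mean log2 level of 9 markers 13.7 to 14.6). That mean hides single markers that varied more between libraries. Pdx1 ran from 419 in GDM-LF 1 to 833 in Lean-LF 2, and Slc2a2 from 2879 in GDM-LF 2 to 11750 in Lean-LF 1. Gcg ran from 26953 in GDM-LF 1 to 202644 in GDM-HFS 3, and Ppy from 2012 in Lean-LF 1 to 26407 in GDM-HFS 2. Their part in the results was not tested. The mean log2 level of 12 acinar markers averaged 11 for Lean-LF, 11.9 for the Lean-HFS group, 12.3 for GDM-LF and 13.0 for the GDM-HFS group, with GDM-LF 2 highest at 15.0, and that of 5 endothelial markers 7.31, 7.19, 6.82 and 6.24 in that order. Reads of rRNA took a mean share of 14.5 ± 14.5% in the Lean-LF group, 31.7 ± 7.14% for Lean-HFS, 7.97 ± 0.844% for GDM-LF and 2.91 ± 1.29% for GDM-HFS (SD over 3 libraries). A length measure, the median log2 deviation of transcripts under 1000 bases less that of transcripts over 4000 bases, was -0.51, -0.20, 0.21 and 0.48 in the same order. Lean-LF 3 stood apart from its group, with a length measure of -0.08 against -0.72 and -0.73 and an rRNA share of 1.84% against 11.3% and 30.4%. The letter K in the title marks 3 libraries, GDM-LF 1, GDM-LF 2 and GDM-HFS 3, all from GDM dams, and the labels do not say what it stands for.

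The members took 0.524% to 0.834% of the reads outside rRNA. The mean share was 0.624 ± 0.129% for Lean-LF, 0.649 ± 0.0254% for the Lean-HFS group, 0.684 ± 0.0275% for GDM-LF and 0.809 ± 0.0361% for the GDM-HFS group (SD over 3 libraries). The 3 GDM-HFS libraries lay above all 9 others except Lean-LF 3, which at 0.769% lay just above the lowest of them, GDM-HFS 3 at 0.768%. Of the 56 members 52 passed the filter of a mean value of at least 1 and were tested among 12339 genes. Cox6b2 and Cox8b, isoforms known from testis and from muscle, had 11 and 9 reads over all libraries, each in 5 libraries, and the testis isoform Cox8c and the pseudogene Cox6c-ps1 had 0 reads in all 12, so these 4 were not tested. Cox6b1 and Cox7a1 were not analysed here.

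Tested members were short and abundant. Their median transcript length was 731 bases, from 177 for Uqcr10 to 2996 for Cox15, against 2118 bases for all tested genes. Per 1000 bases of transcript their median level was 609, against 35.2 for all tested genes. The highest levels per 1000 bases were those of Atp5g1 (3011 ± 931), one of 3 genes for the rotating c ring of ATP synthase, and Atp5b (2846 ± 402), its catalytic beta subunit (mean ± SD over 12 libraries). Cox7b (2658 ± 988), Cox4i1 (2628 ± 1004) and Cox7c (2586 ± 1133), subunits of complex IV, came next. Neighbours in this order differed by less than their SD over libraries. Complex II stood lower than these, with Sdhc at 653 ± 109, Sdhd at 445 ± 116, Sdhb at 364 ± 50.2 and Sdha at 239.9 ± 33.9 per 1000 bases. Complex III overlapped that range, from 184 ± 56.4 for Uqcrb to 1067 ± 303 for Uqcrh. The assembly factors of complex IV lay between 26.2 ± 3.76 for Cox15, which acts in heme A synthesis, and 612 ± 182 for the copper chaperone Cox17. The lowest tested member was Sdhaf1, an assembly factor of complex II, at 1.24 ± 1.21.

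**Figure D1:**
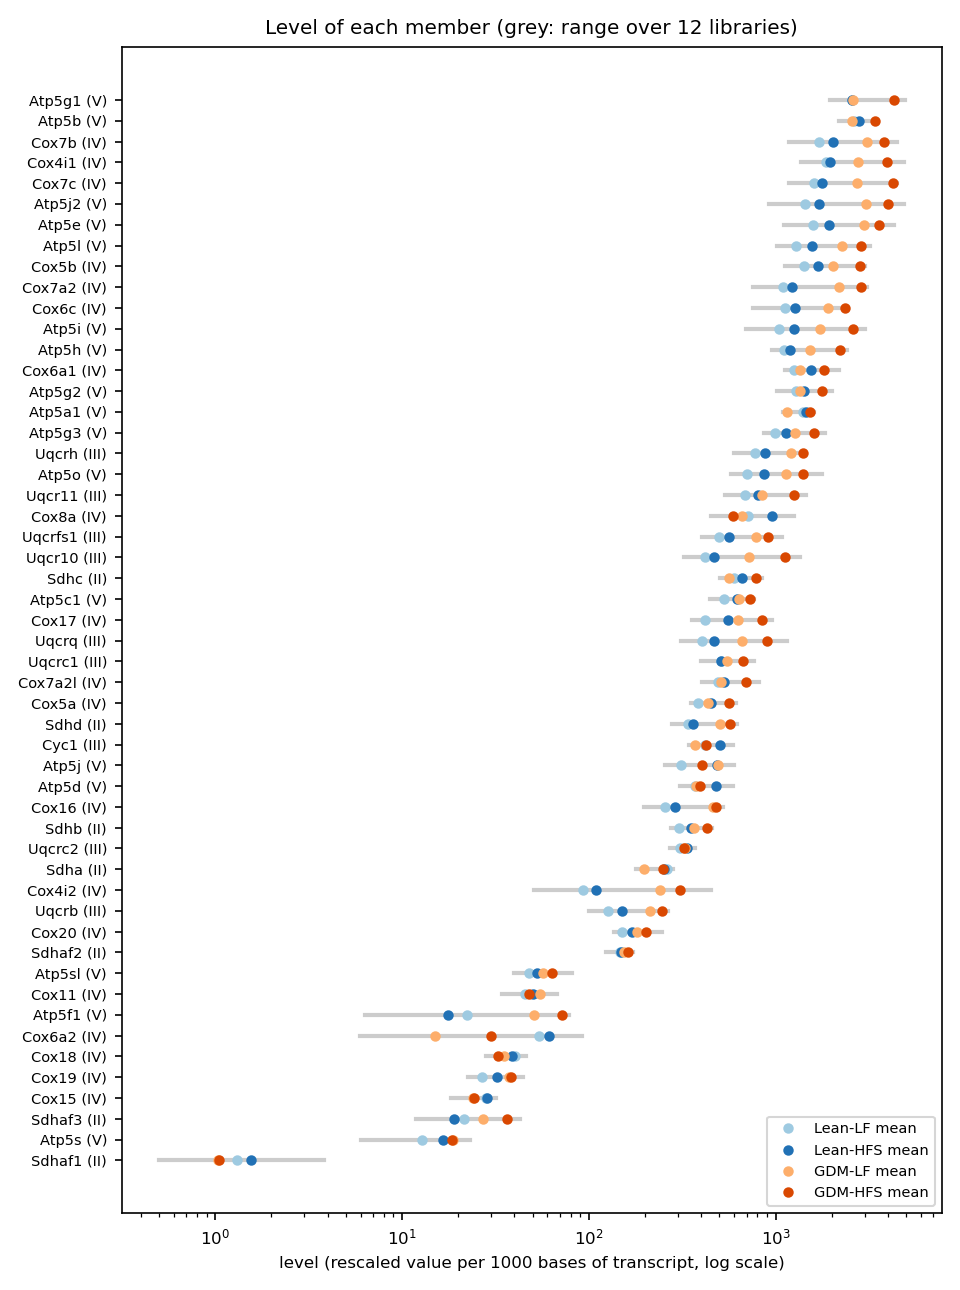
Levels of the 52 tested members as rescaled value per 1000 bases of transcript on a log axis, with the complex in brackets. Points are means of 3 libraries per group and grey lines the range over 12 libraries (drawn from 0.5 where a library was lower); the c ring gene Atp5g1 is at the top (3011) and Sdhaf1 at the bottom (1.24).

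The first comparison asked whether the diet of the dam was followed by a change of these genes in the offspring, as an average over both weaning diets. By limma 24 of 52 tested members rose in offspring of GDM dams, 1 fell and 27 did not pass at an adjusted p of 0.05. Of all tested genes 6.13% rose and 5.43% fell. The median log2 difference of the members was 0.42, against 0.03 for all tested genes, and 43 were positive. Most risen members were subunits: 22 of 39 tested subunits rose and 1 fell, while 2 of 10 assembly factors rose and 0 of 3 related proteins changed. Transcripts of the assembly factors ran from 333 to 2996 bases, with 419 and 764 for the risen Cox17 and Cox16. The 2 classes were not compared at like length. By complex, 1 of 7 rose in complex II, 6 of 9 in complex III, 9 of 19 in complex IV and 8 of 17 in complex V, and the only fall, Cox6a2, was in complex IV. The count rests on several libraries: it was 11 without Lean-LF 1 or without Lean-LF 2, 16 without GDM-HFS 3, and 0 without the 3 K libraries, where GDM-LF is 1 library. Without the K libraries the differences of the 24 risen members were all still positive, from 0.35 to 1.41, with Cox7a2 at 1.11 and a median over all members of 0.37. It was also 0 with the Rn45s rRNA level as a covariate (median 0.20) and 13, all higher, with the acinar marker level as a covariate. Endothelial markers, which were lower in the GDM groups, were not used as a covariate, and their part was not tested.

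**Figure D2:**
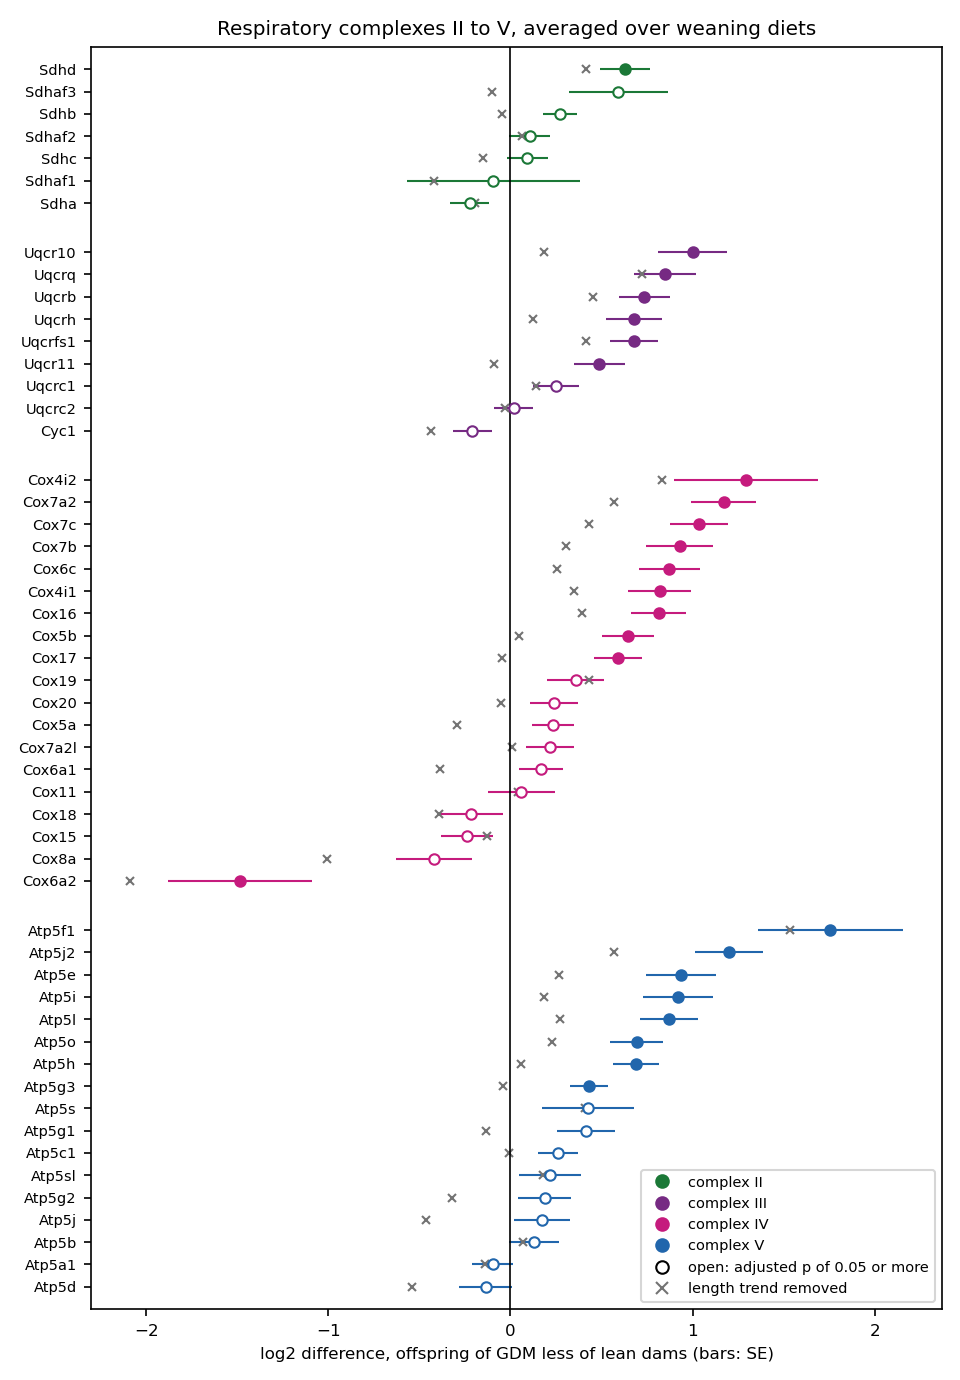
GDM minus lean log2 difference by dam for the 52 tested members by complex, averaged over weaning diets, with SE from limma over 12 libraries. Filled points passed an adjusted p of 0.05, open points did not, and grey crosses give the value after a length trend was removed from each library; Cox6a2 is the filled point on the left, and most crosses lie left of their points.

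Among genes outside the members the share that rose was also higher for shorter transcripts. Under 600 bases 14 of 21 members rose and 1 fell (median log2 0.68), against 36.8% of 375 other genes that rose (median 0.67). From 600 to under 1200 bases 8 of 16 rose (median 0.35), against 18.3% of 1665 others (median 0.34). From 1200 to under 3000 bases 2 of 15 rose (median 0.13), against 3.8% of 6706 others (median 0.05). When the median of the 200 other genes nearest in length was taken from each member, the median member was left at 0.03. Of 52 members 28 lay above their neighbours. Between single replicate libraries this median had an SD of 0.0825, which is not the standard error of a difference between dams. The median less length neighbours was lower on LF and higher on HFS, as given with those comparisons. Within the members the difference was smaller for longer transcripts (Spearman rho -0.496 over 52 members, -0.394 over 12287 other genes). These are correlations across genes, which share libraries and are not independent replicates. The length measure and the rRNA share moved with the dam in the same libraries, and their part in the result was not tested beyond these values and the covariate fit above.

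**Figure D3:**
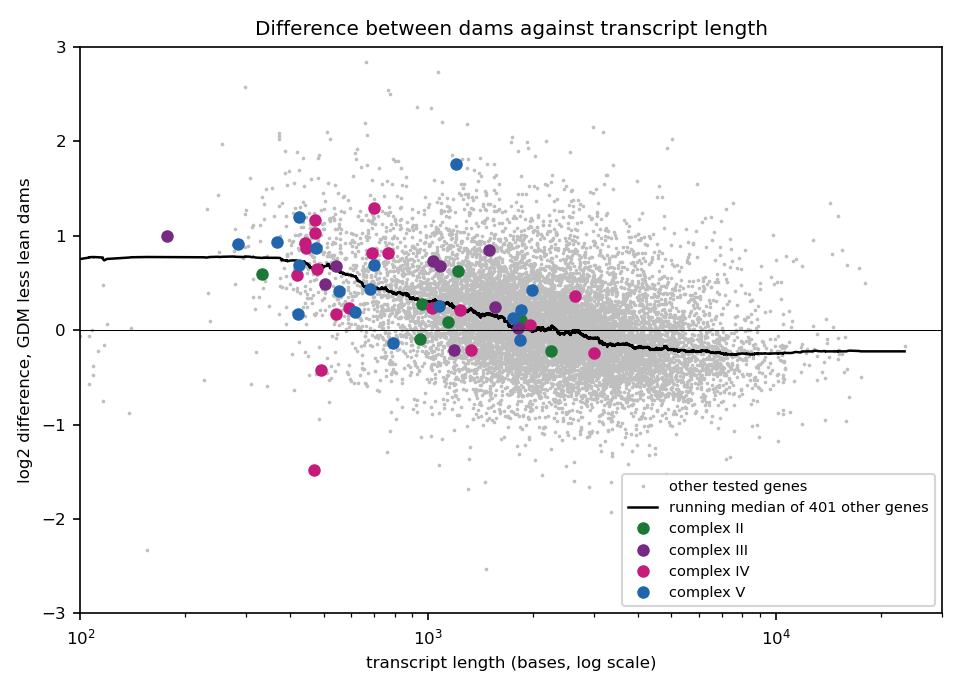
GDM minus lean log2 difference by dam against transcript length in bases (log axis) for all tested genes in grey, with a running median, and for members in colour by complex. Members lie on both sides of the running median; Atp5f1 and Cox4i2 lie farthest above it and Cox6a2 and Cox8a farthest below.

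A trend on length was then removed within each library, fitted to the log2 deviation of each gene from its mean over 12 libraries. After that 6 members rose and 3 fell (limma, adjusted p under 0.05), where 1.86% of all tested genes rose and 2.5% fell. The risen members were Sdhd, Uqcrfs1, Uqcrq, Cox7a2, Atp5j2 and Atp5f1, and the fallen ones Cox6a2, Cox8a and Cyc1. Sdhd lay just under the threshold. The median of the members was then 0.05, against 0.02 for all tested genes.

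Promoters of 45 members were matched by RefSeq transcript on rat build GRCr8, each from 250 bases before to 50 after the annotated start. They are described only, since shared regulation of the members was not tested, and 5 are shown. Cox7a2 and Atp5j2 passed on LF weaning alone as well, and Uqcrq stood far above genes of its length. Atp5i is a risen member with NRF1, ETS and YY1 cores in 1 window, and Cox6a2 fell. The windows are chr8:89601100-89601399, minus strand for Cox7a2, chr12:14535185-14535484, plus strand for Atp5j2, chr10:38089929-38090228, minus strand for Uqcrq, chr14:1464610-1464909, plus strand for Atp5i and chr1:192219667-192219966, minus strand for Cox6a2. Capitals mark matches on either strand to the NRF1 core GCGCATGC, the ETS core CCGGAAG, the YY1 core AAGATGGC, the nuclear receptor core AAGGTCA or the TATA box TATAAA.
Cox7a2: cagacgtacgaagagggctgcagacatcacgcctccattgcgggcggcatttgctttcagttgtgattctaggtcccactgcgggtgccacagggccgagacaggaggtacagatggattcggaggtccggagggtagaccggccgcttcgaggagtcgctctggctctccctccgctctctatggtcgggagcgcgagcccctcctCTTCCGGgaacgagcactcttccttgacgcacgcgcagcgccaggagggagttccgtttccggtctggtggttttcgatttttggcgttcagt
Atp5j2: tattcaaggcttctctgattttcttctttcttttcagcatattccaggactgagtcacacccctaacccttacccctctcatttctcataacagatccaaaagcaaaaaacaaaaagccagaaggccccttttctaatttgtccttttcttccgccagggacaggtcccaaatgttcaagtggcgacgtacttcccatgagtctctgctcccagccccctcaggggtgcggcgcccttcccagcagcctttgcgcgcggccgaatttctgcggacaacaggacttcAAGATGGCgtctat
Uqcrq: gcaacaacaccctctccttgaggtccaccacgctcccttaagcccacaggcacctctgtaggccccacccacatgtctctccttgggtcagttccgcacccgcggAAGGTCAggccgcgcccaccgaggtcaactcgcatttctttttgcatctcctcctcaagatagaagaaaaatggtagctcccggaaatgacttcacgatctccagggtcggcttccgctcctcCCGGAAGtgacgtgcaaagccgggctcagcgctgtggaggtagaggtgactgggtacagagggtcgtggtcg
Atp5i: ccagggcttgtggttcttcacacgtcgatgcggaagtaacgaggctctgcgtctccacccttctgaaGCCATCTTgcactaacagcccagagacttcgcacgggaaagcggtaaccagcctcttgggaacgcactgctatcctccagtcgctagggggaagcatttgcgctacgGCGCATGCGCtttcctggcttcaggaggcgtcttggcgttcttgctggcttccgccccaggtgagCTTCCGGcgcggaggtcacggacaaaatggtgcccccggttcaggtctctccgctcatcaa
Cox6a2: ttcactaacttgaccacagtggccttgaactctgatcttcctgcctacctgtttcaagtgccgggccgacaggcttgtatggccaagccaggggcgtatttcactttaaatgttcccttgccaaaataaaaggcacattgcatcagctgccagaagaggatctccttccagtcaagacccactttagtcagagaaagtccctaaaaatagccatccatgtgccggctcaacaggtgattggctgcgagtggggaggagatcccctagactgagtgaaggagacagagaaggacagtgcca
GC boxes were left in lower case. Cox7a2 holds the ETS core, Atp5j2 the YY1 core past its start, Uqcrq the nuclear receptor core and the ETS core, and Atp5i the YY1, NRF1 and ETS cores, the NRF1 run being a pair of overlapping matches on opposite strands. Cox6a2 holds none of the 6 motifs.

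Over all members the ETS core, read by GABP among other factors, stood in 19 of 45 promoters (42.2%), against 8.75% of 33469 rat promoters of that length and 16.8% of 9448 promoters of other tested genes. The NRF1 core stood in 8 (17.8%, against 2.47% and 4.6%), the YY1 core in 7 (15.6%, against 3.17% and 5.13%) and the nuclear receptor core in 7 (15.6%, against 4.61% and 2.95%). The GC box GGGCGG stood in 20 (44.4%, against 33.1% and 60.7%) and the TATA box in 3 (6.67%, against 14.2% and 7.48%). Both strands were searched, and a match is a description of letters, not of binding. Among 18 promoters of risen and 24 of tested but not risen members the ETS core stood in 9 and 10, the NRF1 core in 3 and 4, the YY1 core in 3 and 4, and the nuclear receptor core in 5 and 2. GC boxes stood in 8 and 10 and TATA boxes in 2 and 0.

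In complex II only Sdhd passed. Sdhd, one of the 2 membrane anchors, stood at 340.5, 351 and 542 in Lean-LF, 388, 517 and 419 in Lean-HFS, 634, 685 and 525 in GDM-LF, and 661, 656 and 758 in GDM-HFS. The GDM libraries lay above the lean ones except that GDM-LF 3 (525) lay under Lean-LF 3 (542), and the gene rose 1.55-fold (log2 0.63 ± 0.137 SE, adjusted p = 0.0169). With the length trend removed it stood at 0.41 on the log2 scale. Sdhc, the other anchor, stood at 703, 578 and 776 in Lean-LF, 852, 741 and 658 in Lean-HFS, 616, 614 and 697 in GDM-LF, and 924, 815 and 963 in GDM-HFS, with overlapping groups of dams (log2 0.09 ± 0.112 SE, adjusted p = 0.605).

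Sdha, the flavoprotein that oxidises succinate, stood at 619, 515 and 634 in Lean-LF, 589, 556 and 576 in Lean-HFS, 441, 405 and 486 in GDM-LF, and 568, 638 and 478 in GDM-HFS. All 3 GDM-LF libraries lay below every lean library, whereas GDM-HFS 2 was the highest of all 12 (log2 -0.22 ± 0.107 SE, adjusted p = 0.174). Sdhb, the iron-sulfur subunit, stood at 296, 266 and 319 in Lean-LF, 328, 355 and 333 in Lean-HFS, 329, 376 and 354 in GDM-LF, and 403, 394 and 439 in GDM-HFS. Within each weaning diet the 3 GDM libraries lay above the 3 lean ones, but the gene did not pass by limma (log2 0.27 ± 0.0943 SE, adjusted p = 0.0732). On recovered reads its adjusted p was 0.118 by edgeR and 0.0351 by DESeq2. The assembly factors of complex II did not pass. Sdhaf3 stood at 7.72, 5.22 and 8.64 in Lean-LF, 5.38, 3.98 and 9.56 in Lean-HFS, 5.64, 9.82 and 11.7 in GDM-LF, and 11.5, 14.2 and 11 in GDM-HFS (log2 0.59 ± 0.273 SE, adjusted p = 0.159), Sdhaf2 had a log2 difference of 0.10, and Sdhaf1 was near the filter limit, with values of 0 to 3.64.

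In complex III 5 small subunits and the Rieske protein rose, and the core proteins and cytochrome c1 did not pass. Uqcr10, a small subunit, stood at 57, 64.4 and 102 in Lean-LF, 81.1, 78.8 and 88.3 in Lean-HFS, 149, 151 and 81.3 in GDM-LF, and 188, 170.3 and 240.5 in GDM-HFS. Only GDM-LF 3 overlapped the lean libraries, and the gene rose 2.00-fold (log2 1.00 ± 0.189 SE, adjusted p = 0.0122). Uqcrb, which helps to form the coenzyme Q site, stood at 104, 120.5 and 168 in Lean-LF, 155, 162 and 148 in Lean-HFS, 253, 172 and 239 in GDM-LF, and 266, 275 and 224 in GDM-HFS, with all 6 GDM libraries above all 6 lean ones (log2 0.74 ± 0.142 SE, adjusted p = 0.0127). Uqcrfs1, the Rieske iron-sulfur protein, stood at 489, 437 and 699 in Lean-LF, 574, 652 and 607 in Lean-HFS, 792, 932 and 834 in GDM-LF, and 859, 920.1 and 1178 in GDM-HFS. Again the 6 GDM libraries lay above the 6 lean ones, and the call held with the length trend removed (log2 0.68 ± 0.132 SE, adjusted p = 0.0127; log2 0.41 ± 0.097 SE, adjusted p = 0.0373 with the trend removed).

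Uqcrq, a subunit near the coenzyme Q site, was named after its values were seen. It stood at 463, 477 and 864 in Lean-LF, 579.8, 812 and 689 in Lean-HFS, 1007, 990.2 and 946 in GDM-LF, and 1169, 1132 and 1708 in GDM-HFS, without overlap between dams (log2 0.85 ± 0.169 SE, adjusted p = 0.0135). Its annotated transcript of 1490 bases is long for the members, and the difference exceeded the median of its 200 length neighbours by 0.67. With the length trend removed it was log2 0.72 ± 0.15 SE, adjusted p = 0.0312. Uqcrh, the hinge protein, and Uqcr11 rose as well (log2 0.68 and 0.49), but Uqcr11 had an adjusted p of 0.0636 by edgeR and lost its call without any single library except Lean-LF 3 or GDM-LF 3 (up to 0.116). The core proteins Uqcrc1 and Uqcrc2 had differences of 0.25 and 0.02 and did not pass.

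Cyc1, cytochrome c1, also named after its values were seen, stood at 508, 484 and 500.5 in Lean-LF, 699, 534 and 554 in Lean-HFS, 422, 409.5 and 482 in GDM-LF, and 518, 440.2 and 559 in GDM-HFS. Its groups overlapped, and its difference of -0.21 ± 0.107 did not pass (adjusted p = 0.201). Against genes of like length it stood -0.49 apart, and with the length trend removed it fell (log2 -0.44 ± 0.113 SE, adjusted p = 0.0475).

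In complex IV 7 of 11 tested subunits rose and 1 fell. Cox7a2, the isoform of subunit 7a found in most tissues, stood at 378, 356 and 814 in Lean-LF, 544, 664 and 538 in Lean-HFS, 1144, 985 and 988 in GDM-LF, and 1301, 1318 and 1465 in GDM-HFS. Every GDM library lay above every lean library, and the gene rose 2.25-fold (log2 1.17 ± 0.178 SE, adjusted p = 0.00966). It kept its call with the length trend removed (log2 0.57 ± 0.127 SE, adjusted p = 0.0347) and without any single library (adjusted p of at most 0.0418). Cox7c, a small membrane subunit, stood at 562, 592 and 1140 in Lean-LF, 869, 844 and 816 in Lean-HFS, 1133, 1378 and 1342 in GDM-LF, and 1940, 2103 and 1961 in GDM-HFS. GDM-LF 1 (1133) lay just under Lean-LF 3 (1140), and the other 5 GDM libraries lay above all lean ones (log2 1.03 ± 0.159 SE, adjusted p = 0.00966). Its adjusted p was 0.0526 with the length trend removed. Cox16, an assembly factor for the catalytic core, stood at 152, 154 and 281 in Lean-LF, 218, 242 and 206 in Lean-HFS, 398, 333 and 333 in GDM-LF, and 389, 324 and 385 in GDM-HFS, without overlap between dams (log2 0.81 ± 0.151 SE, adjusted p = 0.0122).

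Cox4i1, the common isoform of subunit 4, stood at 1033, 944 and 1856 in Lean-LF, 1486, 1329 and 1217 in Lean-HFS, 1699, 2163 and 1849 in GDM-LF, and 2344, 2456 and 3354 in GDM-HFS. Lean-LF 3 lay above GDM-LF 1 and 3, and the gene rose 1.76-fold (log2 0.82 ± 0.171 SE, adjusted p = 0.0149). Cox4i2, the isoform known from lung and from hypoxic cells, stood at 53.8, 52.2 and 88.1 in Lean-LF, 84.7, 35.4 and 108 in Lean-HFS, 303, 58.7 and 141 in GDM-LF, and 223, 104 and 314 in GDM-HFS. 4 GDM libraries lay above all lean ones, GDM-LF 1 and GDM-HFS 3 the farthest, and GDM-LF 2 and GDM-HFS 2 lay within the lean range. Its call was at the threshold (log2 1.29 ± 0.394 SE, adjusted p = 0.0497) and was lost with a pseudocount of 0.25 or 5 (adjusted p = 0.0503 and 0.0529) and without any of 8 single libraries, at up to 0.126. These were Lean-LF 1 and 2, Lean-HFS 1 and 2, GDM-LF 1 and 3, and GDM-HFS 1 and 3. Stromal markers were highest in GDM-LF 1 as well (mean log2 level 9.76, against 4.72 to 7.09 in the others), but not in GDM-HFS 3 (5.86), and their part was not tested. The ratio of Cox4i2 to Cox4i1 differed by 0.47 on the log2 scale (two-sided exact permutation p = 0.35 within weaning diets).

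Cox6a2, the heart and muscle isoform of subunit 6a, was the only member to fall. It stood at 34.9, 23.9 and 17.8 in Lean-LF, 17.5, 43.4 and 25 in Lean-HFS, 4.52, 2.81 and 14 in GDM-LF, and 13.2, 23.4 and 5.77 in GDM-HFS. The 5 lowest libraries were all from GDM dams, GDM-HFS 2 lay within the lean range, and the gene fell 2.80-fold (log2 -1.49 ± 0.396 SE, adjusted p = 0.0325). It had 10 to 131 reads per library. Its partner Cox6a1, the isoform of most tissues, stood at 704, 613 and 725 in Lean-LF, 832, 936 and 759.9 in Lean-HFS, 702, 834 and 676 in GDM-LF, and 986, 798 and 1192 in GDM-HFS and did not pass (log2 0.17 ± 0.121 SE, adjusted p = 0.368). Per length, Cox6a2 made up 2.37% to 5.42% of both isoforms in lean libraries and 0.388% to 3.29% in GDM libraries. The log2 ratio of Cox6a2 to Cox6a1, with transcripts of 470 and 544 bases, was -4.83 ± 0.480 in offspring of lean and -6.48 ± 1.11 in offspring of GDM dams (SD, n = 6 each; two-sided exact permutation within weaning diets p = 0.015, adjusted over both isoform ratios 0.03; the smallest possible p is 0.005). The ratio kept that side of 0.05 without any single library (p of 0.005 to 0.04), but it was not tested without the K libraries. These had the lowest shares of Cox6a2, at 0.739% in GDM-LF 1, 0.388% in GDM-LF 2 and 0.557% in GDM-HFS 3. The other GDM libraries stood at 2.34% (GDM-LF 3), 1.53% (GDM-HFS 1) and 3.29% (GDM-HFS 2). With the acinar level as a covariate the difference of Cox6a2 was -1.09 and did not pass (limma, adjusted p = 0.128). The limma call of Cox6a2 itself was kept only without Lean-LF 3, GDM-LF 3 or GDM-HFS 2 and was lost without any other single library, at an adjusted p of up to 0.0993, and its difference without the K libraries was -0.67. Of 7 skeletal and heart muscle markers Acta1 stood at 8.14 to 118, highest in Lean-HFS 3, and the others at 0 to 1.51, with Myh7 at 0 in all 12 libraries. Their part in the result was not tested.

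Cox8a, the isoform of subunit 8 in most tissues, stood at 347, 443 and 259 in Lean-LF, 614, 402 and 389 in Lean-HFS, 242, 249.8 and 477 in GDM-LF, and 278, 222 and 372 in GDM-HFS. All 3 GDM-HFS libraries lay below all 3 Lean-HFS libraries, while GDM-LF 3 lay above every Lean-LF library (log2 -0.42 ± 0.208 SE, adjusted p = 0.187). Cox8a stood -1.16 apart from its length neighbours and fell with the length trend removed (log2 -1.01 ± 0.248 SE, adjusted p = 0.0414), but with the Rn45s level as a covariate its difference was 0.10 and did not pass. Cox7a2l, a relative of subunit 7a that acts in supercomplexes of complexes III and IV, stood at 663, 502 and 659 in Lean-LF, 612, 726 and 629 in Lean-HFS, 528, 686 and 684 in GDM-LF, and 669.9, 904 and 1007 in GDM-HFS. Its groups overlapped (log2 0.22 ± 0.132 SE, adjusted p = 0.284). Of the remaining subunits Cox7b, Cox6c and Cox5b rose (log2 0.93, 0.87 and 0.64) and Cox5a did not pass (0.23). Among assembly factors the copper chaperone Cox17 rose (0.59), and Cox11, Cox15, Cox18, Cox19 and Cox20, which deliver copper, make heme A or guide the catalytic subunits, lay between -0.24 and 0.36 without passing. Removal of the length trend turned Cox17 to -0.05.

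In complex V 8 of 17 members rose, in the membrane part, the peripheral stalk and, for the epsilon subunit, the central stalk. The alpha and beta subunits of the catalytic head did not pass. Nor did the gamma and delta subunits of the central stalk or Atp5j of the peripheral stalk. Atp5j2, subunit f of the membrane part, stood at 394, 482 and 956 in Lean-LF, 759.5, 719 and 705 in Lean-HFS, 1379, 1410 and 1099 in GDM-LF, and 1600, 1464 and 2065 in GDM-HFS. No lean library reached a GDM library, and the gene rose 2.30-fold (log2 1.2 ± 0.188 SE, adjusted p = 0.00966; log2 0.57 ± 0.118 SE, adjusted p = 0.0312 with the length trend removed). Atp5h, subunit d of the stalk, stood at 409, 406 and 592 in Lean-LF, 542, 512 and 466 in Lean-HFS, 658, 745 and 550.3 in GDM-LF, and 956, 849 and 1022 in GDM-HFS, where Lean-LF 3 lay above GDM-LF 3 (log2 0.69 ± 0.125 SE, adjusted p = 0.0122). Atp5l, subunit g, stood at 481, 487 and 856 in Lean-LF, 786, 839 and 612 in Lean-HFS, 1109, 1218 and 903 in GDM-LF, and 1425, 1153 and 1512 in GDM-HFS, without overlap between dams (log2 0.87 ± 0.161 SE, adjusted p = 0.0122). With the length trend removed Atp5h and Atp5l were left at 0.06 and 0.27 and did not pass.

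Atp5e, Atp5i and Atp5o, the epsilon subunit, subunit e and the oligomycin sensitivity protein, rose by 0.94, 0.92 and 0.69 on the log2 scale, and Atp5g3, a c ring gene, by 0.43 (-0.04 with the length trend removed). The other c ring genes Atp5g1 (0.42) and Atp5g2 (0.19) did not pass. Nor did the alpha and beta subunits Atp5a1 (-0.10) and Atp5b (0.13) or the gamma and delta subunits Atp5c1 (0.26) and Atp5d (-0.14). Atp5f1, subunit b of the stalk, had the widest difference (log2 1.76 ± 0.40 SE, adjusted p = 0.0195), but its values of 7.62 to 93.5 were low for a subunit, with 17 to 422 reads per library, and the table lists 2 copies of it, so reads may be split between copies and its value is uncertain. Its call was lost without Lean-LF 1, Lean-LF 2, Lean-HFS 1 or GDM-HFS 3 (adjusted p of 0.0501 to 0.0570). Atp5s and Atp5sl, related proteins with the same prefix, did not pass (0.43 and 0.22).

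**Figure D4:**
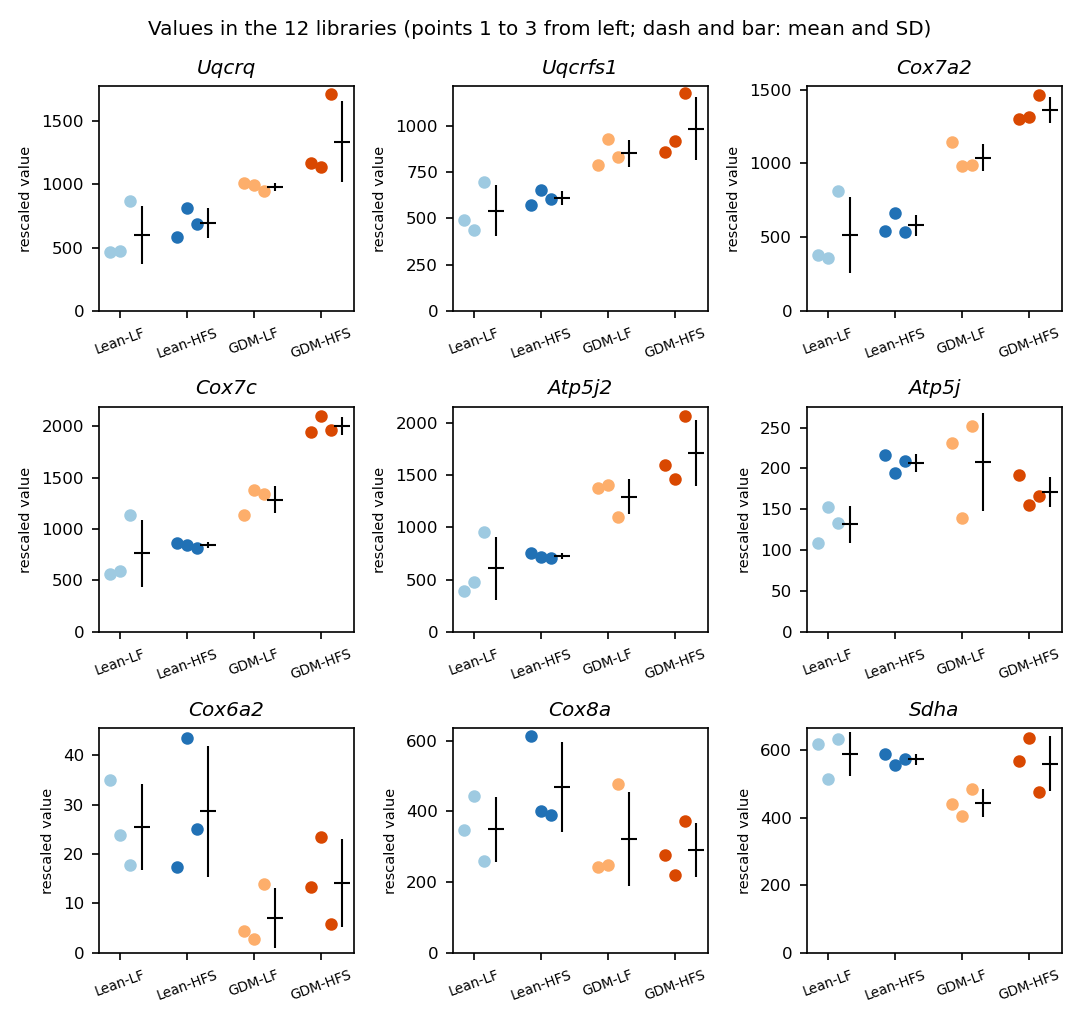
Rescaled values of 9 members in the 12 libraries, 3 points per group in replicate order, with mean and SD beside them. All 6 GDM libraries lie above all 6 lean libraries for Uqcrq, Uqcrfs1, Cox7a2 and Atp5j2; Cox6a2 is low in most GDM libraries, and the groups of Cox8a, Atp5j and Sdha overlap between dams.

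Within each weaning diet fewer members passed. On LF the members that rose by limma were 2, Cox7a2 (log2 1.11 ± 0.252 SE) and Atp5j2 (1.18 ± 0.266), both at an adjusted p of 0.0477, and 0 fell, where 0.851% of all tested genes rose and 0.729% fell. At an unadjusted p under 0.05 there were 25 members, against 26.6% of all tested genes. Without Lean-LF 3 the count was 22, without GDM-LF 3 it was 11, and it was 0 without any one of the 10 other libraries. The share of all tested genes in these fits is not given, so a change of the count cannot be read as particular to the members. edgeR called 0 members and DESeq2 15, against 14.3% of the genes to which DESeq2 gave an adjusted p. On HFS 0 members passed by limma, where 0.0081% of all tested genes rose and 0% fell. At an unadjusted p under 0.05 there were 27, against 14.2% of all tested genes. For HFS edgeR called 0 members and DESeq2 16, against 3.57% of its genes. The count on HFS was 16 without Lean-LF 3, which enters only through the shared estimate of spread, and 9 with only the HFS groups in the fit. The share of all tested genes in these 2 fits is not given, so the counts cannot be read as particular to the members. The median difference was 0.35 on LF and 0.44 on HFS, against 0.05 and -0.01 for all tested genes. Less the median of their 200 length neighbours, the median member stood at -0.04 on LF, with 21 of 52 above their neighbours, and at 0.17 on HFS, with 33 of 52 above.

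The groups were also compared by whether their libraries overlapped. On HFS 29 of 52 members had all 3 GDM libraries above all 3 lean libraries, where 12.7% of all tested genes did, and Atp5j and Cox8a had all 3 below, where 12.1% of all tested genes did. By length, these were 16 of 21 members under 600 bases, against 46.1% of other genes, 9 of 16 from 600 to under 1200 bases, against 30.1%, and 4 of 15 from 1200 to under 3000 bases, against 11%. On LF 14 members lay above without overlap, where 12.9% of all tested genes did. By length these were 6 of 21, against 37.6% of other genes, 6 of 16, against 23.6%, and 2 of 15, against 12.7%, from the shortest to the longest band. Across both diets 11 had all 6 GDM above all 6 lean libraries, where 2.8% of all tested genes did. This count was not set against genes of like length. The 11 members were Uqcrb, Uqcrfs1 and Uqcrq of complex III, Cox16, Cox6c, Cox7a2 and Cox7b of complex IV, and Atp5g3, Atp5j2, Atp5l and Atp5o of complex V.

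**Figure D5:**
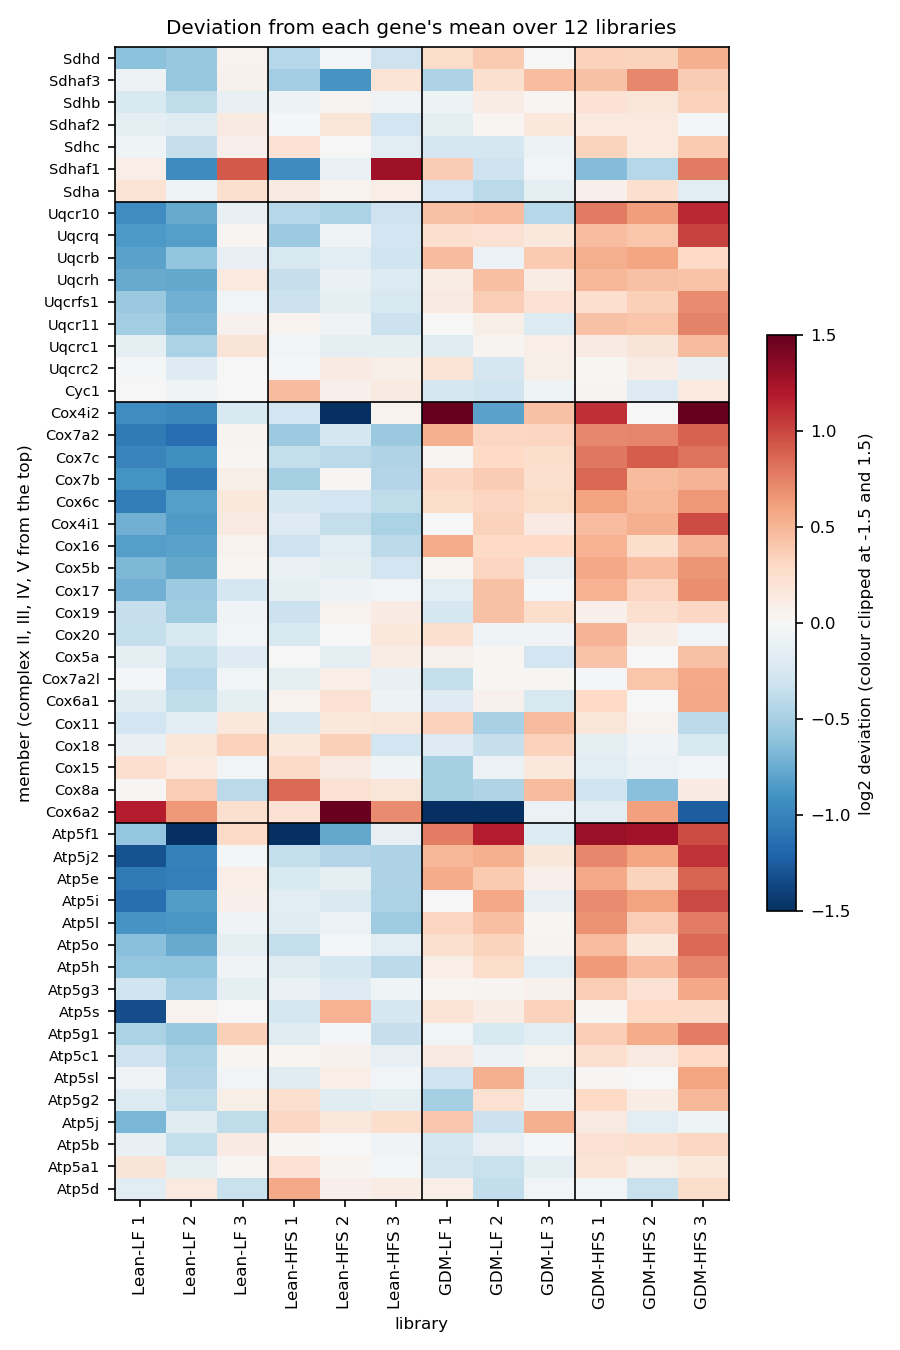
Log2 deviation of each tested member from its own mean over 12 libraries (colour, clipped at -1.5 and 1.5), with libraries in columns and members in rows by complex. The median member lies at -0.42 and -0.54 in Lean-LF 1 and 2, at 0.03 in Lean-LF 3 and at 0.26 to 0.51 in the GDM-HFS libraries.

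The weaning diet gave 0 members past the threshold by limma, edgeR and DESeq2, as an average over dams and within either, and 0% of all tested genes passed in each of the 3 comparisons by limma. At an unadjusted p under 0.05 there were 13 members averaged over dams (4.95% of all tested genes), 2 in offspring of lean dams (2.18% of all tested genes) and 15 in offspring of GDM dams (9.63% of all tested genes). The averaged difference was positive for 49 of 52 members (median log2 0.25, against -0.01 for all tested genes). Less the median of their length neighbours the median member stood at 0.11 averaged over dams, with 45 of 52 above, at 0.03 in offspring of lean dams, with 33 above, and at 0.17 in offspring of GDM dams, with 44 above. The median was 0.11 with the deposited values as they stand, where that of all genes was -0.14. In offspring of lean dams alone the median turned from 0.21 to -0.15 with that scaling, where all genes shifted to -0.35.

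Cox17 stood at 149, 168 and 207 in Lean-LF, 225, 234 and 239 in Lean-HFS, 219, 333 and 241 in GDM-LF, and 354, 308 and 399 in GDM-HFS. Among lean dams the HFS libraries lay above the LF libraries, and among GDM dams GDM-LF 2 lay within the HFS range (log2 0.43 ± 0.131 SE, unadjusted p = 0.00581, adjusted p = 0.883). Uqcr11 stood at 304, 272 and 460 in Lean-LF, 454, 424 and 349.7 in Lean-HFS, 437, 465 and 379 in GDM-LF, and 593, 585 and 733 in GDM-HFS, with the GDM-HFS libraries above all others (log2 0.42 ± 0.14 SE, unadjusted p = 0.00947, adjusted p = 0.883). Cox6a1, Cox5b and Sdhc followed (log2 0.36, 0.39 and 0.31, unadjusted p = 0.0105, 0.0155 and 0.0159). Cox5b, the zinc-binding subunit, stood at 573, 537 and 929.9 in Lean-LF, 850, 835 and 752 in Lean-HFS, 936, 1143 and 836 in GDM-LF, and 1369, 1256 and 1444 in GDM-HFS. In it the lean libraries overlapped between diets and the GDM-HFS libraries lay above every other library.

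Whether the difference between dams depended on the weaning diet was tested as an interaction, the difference on HFS less that on LF. By limma, edgeR and DESeq2 0 members passed, and 0% of all tested genes did by limma. At an unadjusted p under 0.05 there was 1 member, a smaller share than the 5.92% of all tested genes. It was Atp5j, coupling factor 6 of the ATP synthase stalk, which is given here as one of the 5 members of lowest p. Atp5j stood at 108, 153 and 134 in Lean-LF, 217, 194 and 209 in Lean-HFS, 231, 139.8 and 252 in GDM-LF, and 192, 156 and 166 in GDM-HFS. GDM-LF 1 and 3 lay above the Lean-LF libraries and GDM-LF 2 among them, whereas the GDM-HFS libraries all lay below the Lean-HFS ones (log2 -0.89 ± 0.305 SE, unadjusted p = 0.0113, adjusted p = 0.784). Atp5g1 stood at 1148, 1083 and 2048 in Lean-LF, 1415, 1566 and 1260 in Lean-HFS, 1553, 1362 and 1419 in GDM-LF, and 2072, 2365 and 2723 in GDM-HFS, with GDM-HFS above every other library (log2 0.67 ± 0.317 SE, unadjusted p = 0.053, adjusted p = 0.784). Without Lean-LF 3 its interaction was 0.38. Sdha, Atp5h and Sdhc had interactions of 0.36, 0.41 and 0.35 and did not pass either.

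Other genes of mitochondrial energy supply were read as lists in the averaged comparison of dams, where 6.13% of all tested genes rose and 5.43% fell. Complex I, which passes electrons from NADH to coenzyme Q, gave 22 risen and 0 fallen of 35 tested subunits (median log2 0.59, median length 712 bases), with Ndufa1 at 1.29. With the length trend removed 4 rose and 1 fell. Assembly factors outside the symbol rule gave 7 risen and 1 fallen of 22 (median 0.27). Higd1a, a small inner membrane protein that binds respiratory complexes, rose by 1.82 and by 1.67 with the length trend removed, and Slirp, which stabilises mitochondrial messenger RNA, by 0.80 and 0.89. Coa5, an assembly factor of complex IV, fell by 0.52 (-0.34 and adjusted p = 0.076 with the length trend removed).

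Regulators of respiratory genes gave 1 risen and 1 fallen of 15 (median -0.03). Ppargc1a, the coactivator that drives mitochondrial gene programmes, had group means of 35.4 (Lean-LF) and 35.7 (Lean-HFS) against lower means of 19.0 (GDM-LF) and 19.9 (GDM-HFS) (log2 -0.87 ± 0.234 SE, adjusted p = 0.0339 by limma), and its adjusted p was 0.0601 with the length trend removed. Chchd2, a mitochondrial protein that also acts on the Cox4i2 promoter, rose by 1.75, with 1.27 and an adjusted p of 0.091 after the length trend was removed. Electron carriers and coenzyme Q synthesis gave 1 risen (Coq3, a methyltransferase of that synthesis, at 0.69) of 15, and 0 fell. With the length trend removed Coq3 stood at 0.41 and did not pass (adjusted p = 0.112). The tricarboxylic acid cycle supplies electrons to the chain and shares Sdha to Sdhd with complex II. A list of 18 other genes of the cycle and next to it gave 0 changed (median -0.12, median length 2296 bases). It held Pdha1, Pdhb, Dlat and Pc, which act on pyruvate, and the cytosolic aconitase Aco1, none of them an enzyme of the cycle itself. The lists also differed in transcript length. With the length trend removed the median was 0.15 for complex I and -0.15 for the tricarboxylic acid cycle list. It was 0.04 for the assembly factors, 0.02 for the regulators and 0.02 for electron carriers and coenzyme Q synthesis. No test compared the lists.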

How the data were processed

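Islet RNA from 12 libraries was read from a deposited table of signal values per gene. The submitters' processing notes name STAR 2.5.1b, HOMER 4.9 and DESeq2 (no version), with no role for each. Per the file headers, the authors ran HOMER on rat build rn5 over exons with reads of either strand counted, and options for matrix normalization and FPKM. With reads of both strands counted, a gene and an antisense partner cannot be told apart. In every library 100% of the values were whole multiples of 1 read (tolerance 0.1 read), the same for every gene whatever its length, so the values are not FPKM and read numbers were recovered. The value of 1 read was 0.199 to 0.510.

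Values were divided by a factor per library that set the median ratio over 11337 genes above 0 in all libraries equal. Genes with a mean of at least 1 were kept, and log2(value + 1) was fitted with limma 3.58.1 (R 4.3.3) over all 12 libraries with a mean-variance trend and Benjamini-Hochberg adjustment over 12339 genes. Log2 differences are on that scale and understate changes of low genes. The design had assumed normalized values without reads. The count tests edgeR 4.0.16 and DESeq2 1.42.0 on recovered reads were therefore chosen after seeing the data; averaged over diets they called 1487 and 2237 genes, against 1426 by limma. Length comparisons used the 200 tested genes nearest in transcript length outside the members. Scripts were tested on simulated data. There were 0 per-sample columns left unused.

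Values by library are given for the Sdh subunits, the isoform pairs of complex IV, the 3 members of lowest p in each complex, fallen members, and the 5 of lowest p in the averaged diet comparison and the interaction. Members and lists were chosen with earlier results of these data known. Promoters are RefSeq sequences on GRCr8, matched by RefSeq transcript, and some genes have a newer symbol there. A further gene list is not reported here.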

Additional observations from a re-analysis of the deposited data

How the results depend on the processing

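For the averaged comparison of dams, 25 members passed. The count was 9 with the length trend removed, 13 with the acinar level as covariate, 0 with the Rn45s level as covariate and 0 without the K libraries; over fits without 1 library it was 11 to 28, lowest without Lean-LF 1 or Lean-LF 2 and highest without Lean-LF 3. All tested genes past the threshold, 1426 in number, became 674 with the deposited values as they stand, 671 with no mean-variance trend, 2568 with library weights, 539 with the length trend removed, 208 with the acinar covariate, 0 with Rn45s or without the K libraries, and 183 to 2471 without 1 library. With the replicate block 23 members and 1140 genes passed. Replicate numbers did not pair the libraries: over 18 pairs the correlations of deviations ran from -0.499 to 0.201, with 5 over 0.1. Cox6a2 and Uqcr11 were lost with the block (adjusted p = 0.0507 and 0.0615).

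On LF weaning, where 2 members passed, the count was 0 with unrescaled values, a pseudocount of 5, no filter, no trend, the length trend removed, either covariate, the replicate block, no K libraries, edgeR or only the groups compared; it was 22 with library weights, 15 by DESeq2, and 0 to 22 without 1 library. On HFS weaning, where 0 passed, it was 5 with library weights, 16 by DESeq2, 9 with only the groups compared, and 0 to 16 without 1 library. Apart from DESeq2, no share of all tested genes is given beside these LF and HFS counts, which cannot be read as particular to the members. The 4 other comparisons gave 0 in every alternative. Without rescaling the median of all genes was -0.17 and 0.20 for dams on LF and HFS, -0.14 and -0.35 for diet averaged and in lean dams, and 0.42 for the interaction.

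The median of the members less that of genes of like length, 0.03, ran from -0.02 to 0.10 over its alternatives. With the length trend removed Atp5g3, Uqcr11 and Cox17 turned to -0.0393, -0.0927 and -0.0475. The cause of these shifts was not tested. A fit on only the groups compared was not run for averaged comparisons or the interaction, which use all groups. Low read numbers limit Cox6a2, Atp5f1 and Sdhaf1 (0 to 16 reads).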
